A study of Mus musculus with 6 samples.

Results

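The genes described here are the core of the Notch pathway in an RNA sequencing study of SVEC4-10, a mouse cell line that its labels call immortalised and endothelial. They comprise the receptor genes Notch1, Notch2 and Notch3, the ligand genes Jag1 and Dll1, the target genes Hes1, Hey1, Hey2 and Heyl, and the feedback inhibitor Nrarp. These 10 of the 55536 listed genes were taken by name, and each matched 1 Ensembl identifier in GENCODE M21. The 3 control libraries came from untreated cells, whose titles also give 24 hours. The 3 nattokinase libraries came from cells kept for 24 hours with nattokinase, a protease of Bacillus subtilis that breaks down fibrin. All 6 came from 1 cell line grown in serum-containing medium. No dose is given in the labels, nor whether replicates were separate cultures, so a p-value here refers to the spread among 6 samples that may differ only technically.

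Notch receptors are membrane proteins that are cut when a Jagged or Delta-like ligand on a neighbouring cell binds them. The freed intracellular part enters the nucleus, joins the DNA-binding protein RBPJ and a Mastermind coactivator, and switches on genes of the HES and HEY families, which encode transcriptional repressors. In blood vessels the pathway is known for arterial identity, for the choice between tip and stalk cells in sprouting, and for signalling between endothelial and mural cells.

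Values are FPKM, reads per kilobase of exon and scaled to the assigned reads of the library, so levels of different genes can be compared per length. Between 15044778 and 18341370 reads were assigned to genes per library. Of 12 endothelial markers, among them Pecam1 and Cdh5, 0 reached 1 FPKM in at least 3 libraries, and 5 of them (Tie1, Erg, Cldn5, Emcn and Sox17) had 0 reads in all 6. Their summed level was 0.541 to 1.13 FPKM in the controls and 0.720 to 0.730 FPKM with nattokinase, whereas 10 fibroblast and mural markers summed to 2046 to 2195 and 1827 to 1898 FPKM. Most of that sum was Col1a1 (mean 1403 FPKM in the controls and 1236 with nattokinase) and Col1a2 (524 and 511). Of those 10, 5 reached the level needed for testing, Col3a1 fell, and Thy1 had 0 reads throughout. The mural markers Rgs5, Myh11 and Cspg4 had at most 3, 6 and 3 reads per library, and Des had 14 to 31. From the same list, Pdgfrb had a mean of 17.0 FPKM in the controls and 19.4 with nattokinase, and Pdgfra 7.45 and 8.32. Neither was called (limma adjusted p = 0.12 and 0.17). The sum therefore speaks mainly for collagen transcripts and not for the whole list. The 4 lymphatic markers summed to 125 to 136 FPKM and 110 to 115 FPKM, mostly Pdpn, which fell, while Prox1 and Lyve1 had 0 reads. The remaining one, Flt4, had a mean of 11.2 FPKM in the controls and 10.7 with nattokinase and was not called (limma adjusted p = 0.54). The 5 leukocyte markers summed to at most 0.354 FPKM and the 4 epithelial ones to 4.34 to 5.57 FPKM. The part of these differences in the results below was not tested. In bulk RNA, fewer cells of a type and less RNA per cell cannot be told apart. Protein-coding genes took 95.4% to 96.7% of reads in the controls and 98.3% to 98.4% with nattokinase.

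RefSeq promoter windows of 300 bases (250 before to 50 after the start site, GRCm38.p6) were held for 7 of the 10 genes, not for Hes1, Hey1 and Heyl. The window of Jag1 is shown because Jag1 had the largest measured change among the 4 members that could be tested, and that of Hey2 because it was the only one of the 8 member windows (Dll1 has 2) with the core motif bound by RBPJ. Capitals mark matches, on either strand, to the RBPJ core TGGGAA, the HES-binding N box CACNAG, the TEAD motif GGAATG, the AP-1 motif TGANTCA and the GC box GGGCGG. The Jag1 window lies at chr2:137116471-137116770 and the Hey2 window at chr10:30842734-30843033, both on the minus strand.
Jag1: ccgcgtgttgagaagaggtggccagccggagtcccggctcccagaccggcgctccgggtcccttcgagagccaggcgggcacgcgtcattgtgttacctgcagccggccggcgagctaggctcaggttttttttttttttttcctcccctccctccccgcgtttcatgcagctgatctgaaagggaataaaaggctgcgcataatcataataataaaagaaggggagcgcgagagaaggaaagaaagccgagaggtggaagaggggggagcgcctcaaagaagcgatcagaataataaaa
Hey2: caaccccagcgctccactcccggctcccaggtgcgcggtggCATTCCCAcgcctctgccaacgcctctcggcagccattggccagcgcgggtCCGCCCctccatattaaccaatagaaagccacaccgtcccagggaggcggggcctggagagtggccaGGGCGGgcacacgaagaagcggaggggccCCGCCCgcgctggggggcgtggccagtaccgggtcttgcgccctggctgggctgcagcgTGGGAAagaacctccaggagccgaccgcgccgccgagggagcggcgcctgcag

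The Hey2 window held the RBPJ core at positions -207 and -3 from the start site, the former sharing bases with a TEAD match at -209, and 3 GC boxes. The Jag1 window held none of the 5 motifs, which says only that these letters are not in it. As a background, 25.6% of all 32851 mouse promoter windows held the RBPJ core, 42.5% the N box, 14.7% the TEAD motif, 7.81% the AP-1 motif and 35.7% the GC box. The N box was in windows of Dll1, Notch1, Notch2, Notch3 and Nrarp. A match is a description of sequence and not evidence of binding.

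Among the 10 members, the pathway was represented in these cells mainly by Notch2, Jag1 and Hes1. Over the 6 libraries Notch2 had 19.1 ± 1.48 FPKM (SD, n = 6), a level above 88.7% of the 24549 genes with any read. Hes1 followed at 13.8 ± 1.42 FPKM, Jag1 at 6.19 ± 1.20 and Notch3 at 1.39 ± 0.18. The library ranges of these 4 genes did not overlap one another. Hey1 (0.715 ± 0.13 FPKM), Hey2 (0.535 ± 0.070) and Notch1 (0.464 ± 0.075) came next, and Hey1 overlapped Hey2 and Hey2 overlapped Notch1, so the order of these neighbours was not beyond their spread. Dll1 (0.169 ± 0.045 FPKM) and Nrarp (0.0315 ± 0.025) were close to the limit of detection in assigned reads, and Heyl had 0 reads in every library. Most exon bases of Nrarp are shared with another gene, which makes its level uncertain. The order was the same in both groups.

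With nattokinase, transcripts of the ligand gene Jag1 and the target gene Hes1 rose, and neither of the 2 tested receptors changed past the threshold. Of the 10 genes 4 reached 1 FPKM in at least 3 libraries and were tested with limma. Of these 2 were called higher and 0 lower at a Benjamini-Hochberg adjusted p of 0.05 over all 10913 tested genes. At an unadjusted p under 0.05 limma gave 2 higher and 1 lower, and limma-voom on the recovered reads called 2 higher and 0 lower. In the same comparison 5.61% of all tested genes were called higher and 3.24% lower, 8.85% in all. Limma-voom called 872 of all tested genes higher and 462 lower. No share over all genes was taken at an unadjusted p, so counts at that level, here and below, have no background. The 6 other members (Notch1, Dll1, Hey1, Hey2, Heyl and Nrarp) were too low for the test and are given by value. Of the 4 tested members 3 had groups that did not overlap, 2 higher and 1 lower, beside 28.8% of all tested genes (17.4% higher and 11.4% lower). Members were chosen with earlier results of these data known, so these comparisons with all tested genes do not test them as a set.

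**Figure D1:**
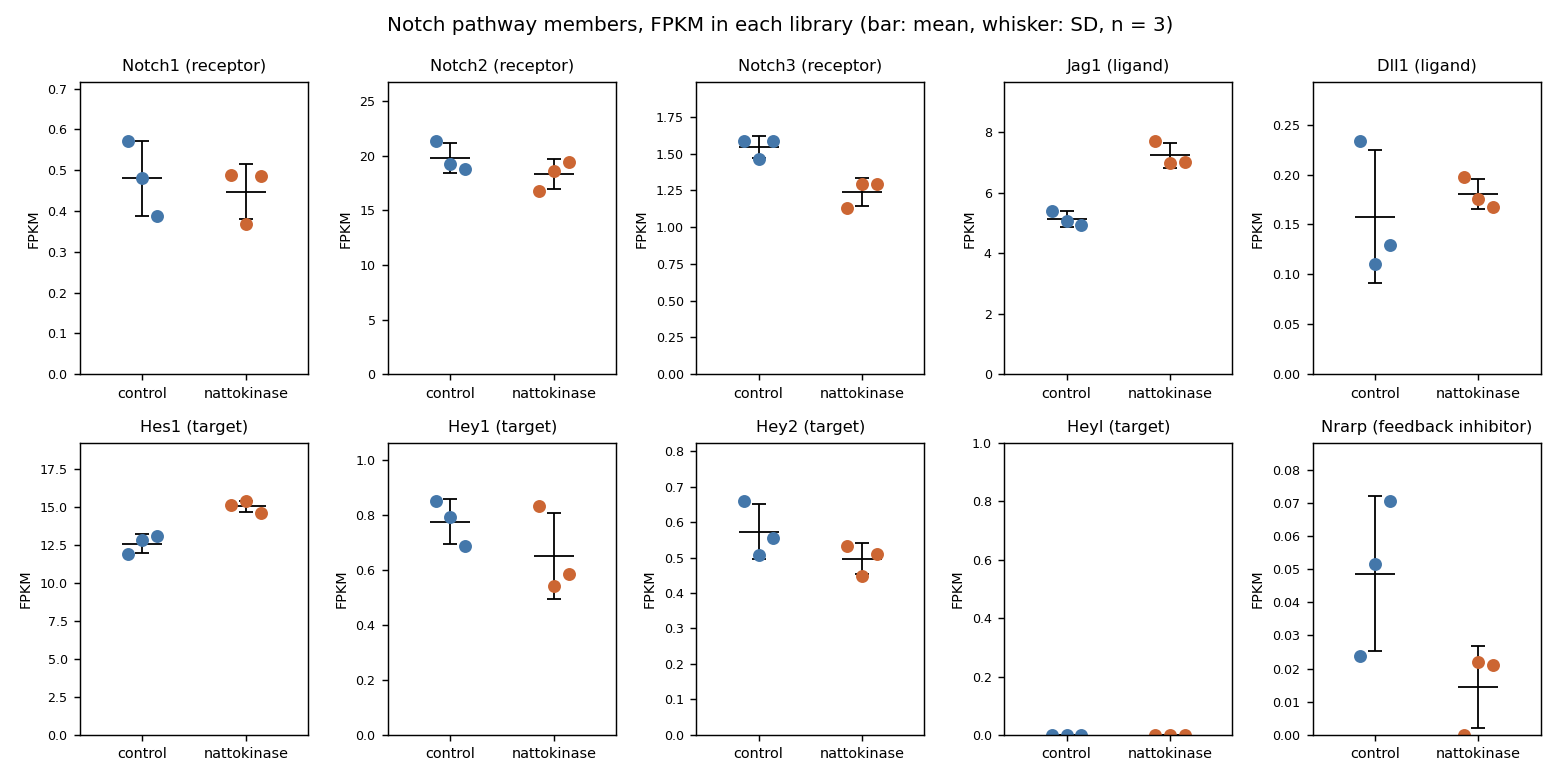
FPKM of the 10 genes (vertical axes from 0, scaled per gene) in each control and nattokinase library, shown as points, with the mean as a bar and the SD as whiskers (n = 3). All nattokinase libraries lie above all controls for Jag1 and Hes1 and below them for Notch3, whereas the groups overlap for Notch2, and the panel of Heyl holds only zeros.

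Among the receptors, Notch2 carried nearly all transcripts per length. It had 21.4, 19.2 and 18.8 FPKM in the controls and 16.8, 18.7 and 19.5 FPKM with nattokinase (chromosome 3, 98013527 to 98150361, GRCm38). The groups overlapped, with the highest value in control replicate 1 and the lowest in nattokinase replicate 1. The log2 fold change, here always on the log2(FPKM + 1) scale, was -0.11 (SE 0.066, 95% interval -0.26 to 0.04, limma adjusted p = 0.37).

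Notch3, a receptor known chiefly from mural cells, was the second receptor by level. It had 1.59, 1.46 and 1.59 FPKM in the controls and 1.13, 1.29 and 1.29 FPKM with nattokinase (chromosome 17, 32120820 to 32166852), from 165 to 212 reads per library. Every nattokinase library was below every control, but the difference did not pass the threshold (log2 fold change -0.19, SE 0.080, 95% interval -0.37 to -0.01, unadjusted p = 0.043 and limma adjusted p = 0.20). The ratio of mean FPKM was 0.801, which the added pseudocount of 1 FPKM compresses on the log2 scale for a gene of this level. With a pseudocount of 0.1 FPKM the log2 fold change was -0.30, and with limma-voom -0.32 (limma-voom adjusted p = 0.062).

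Notch1, the receptor best known from endothelium, had 0.572, 0.481 and 0.388 FPKM in the controls and 0.487, 0.369 and 0.487 FPKM with nattokinase, from 91 to 132 reads per library. The groups overlapped throughout. Fitted without the filter on low values, Notch1 had a log2 fold change of -0.03 (limma adjusted p = 0.90). Its ratio of mean FPKM was 0.932. Notch4, the other endothelial receptor, is not a member and had only 5 to 16 reads per library. Of the summed FPKM of the 4 receptor genes, Notch2 made up 90.4% ± 0.22 in the controls and 91.3% ± 0.22 with nattokinase (SD, n = 3 each), and Notch3 7.07% ± 0.49 and 6.17% ± 0.14. The receptor sum itself was 20.8 to 23.6 FPKM and 18.5 to 21.3 FPKM, with overlapping groups.

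Exons of all 3 receptor genes overlap those of another annotated gene, and strand use in the counting is not stated. The overlapping genes of Notch1, Notch2 and Notch3 (0610009E02Rik, Gm42820 and Gm17276) had at most 8, 9 and 2 reads of their own per library. Exons of Nrarp share 2051 of their 2582 bases with Gm38287, which had 0 reads of its own, and those of Dll1 share 867 bases with A930024N18Rik, which had at most 1 read per library. Reads in the shared exon parts cannot be told apart. Whether such reads were counted for either gene is not stated, so the value of Nrarp above all may understate its transcript level. Exons of Jag1 and Hes1 overlap no other gene.

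Jag1, a Jagged ligand that is membrane-bound and activates Notch receptors on adjacent cells, showed the clearest change of the family. It had 5.41, 5.06 and 4.92 FPKM in the controls and 7.73, 6.97 and 7.02 FPKM with nattokinase (chromosome 2, 137081456 to 137116644), from 444 to 812 reads per library. The lowest nattokinase library stood well above the highest control. Jag1 rose 1.41-fold, from 5.13 ± 0.25 to 7.24 ± 0.42 FPKM (SD, n = 3 each; log2 fold change 0.43, SE 0.062, 95% interval 0.29 to 0.56, limma adjusted p = 0.0024). It remained called after scaling every library to the same protein-coding total (log2 fold change 0.40) and without any 1 library (0.38 to 0.46, limma adjusted p up to 0.011).

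The other ligands were lower in level. Dll1, a Delta-like ligand, had 0.234, 0.110 and 0.129 FPKM in the controls and 0.197, 0.176 and 0.168 FPKM with nattokinase, which is 7 to 16 reads per library. The groups overlapped, and no difference was detectable at this depth. Jag2, the other Jagged ligand and not a member, had 2.12 ± 0.10 and 2.01 ± 0.054 FPKM (log2 fold change -0.05, 95% interval -0.21 to 0.11, limma adjusted p = 0.73). Dll4, the ligand of sprouting endothelium, and Dll3 had 0 to 2 reads per library.

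The ligand makeup shifted with Jag1. Jag1 made up 68.9% ± 0.91 of the summed FPKM of the 5 ligand genes in the controls and 76.6% ± 1.15 with nattokinase. The ratio of Jag1 to Jag2 was 2.35 to 2.49 in the controls and 3.40 to 3.95 with nattokinase, without overlap. That of Jag1 to Notch2 was 0.253 to 0.263 and 0.360 to 0.459, again without overlap. An exact two-sided permutation test over the 6 libraries gave p = 0.10 for both ratios, the smallest that 3 against 3 allows (adjusted p = 0.15 over the 3 pairs compared).

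Hes1, which encodes a basic helix-loop-helix repressor induced by Notch and by other signals, was by far the most abundant of the 4 HES and HEY members. It had 11.9, 12.8 and 13.1 FPKM in the controls and 15.1, 15.4 and 14.6 FPKM with nattokinase (chromosome 16, 30064384 to 30067796), from 392 to 555 reads per library. The groups did not overlap. Hes1 rose 1.19-fold, from 12.6 ± 0.62 to 15.0 ± 0.38 FPKM (SD, n = 3 each; log2 fold change 0.24, SE 0.052, 95% interval 0.12 to 0.36, limma adjusted p = 0.019). The call was lost without control replicate 2 (adjusted p = 0.050, just above the threshold), nattokinase replicate 1 (0.059), nattokinase replicate 2 (0.084) or nattokinase replicate 3 (0.050), while the log2 fold change stayed between 0.20 and 0.27 over the 6 left-out libraries. Rescaled to protein-coding totals it was 0.21 (limma adjusted p = 0.033).

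The HEY genes, relatives of Hes1 that act downstream of Notch in vessels, were low. Hey1 had 0.850, 0.794 and 0.687 FPKM in the controls and 0.832, 0.542 and 0.584 FPKM with nattokinase. Hey2 had 0.658, 0.507 and 0.554 FPKM and 0.531, 0.447 and 0.510 FPKM. Both genes overlapped between the groups and had 31 to 49 and 35 to 49 reads per library. Their group means were lower with nattokinase, at 0.653 ± 0.16 against 0.777 ± 0.083 FPKM for Hey1 and 0.496 ± 0.044 against 0.573 ± 0.078 FPKM for Hey2. Fitted without the filter on low values, they had log2 fold changes of -0.11 (limma adjusted p = 0.65) and -0.07 (0.73), where 3.27% of 18797 genes were called. Their ratios of mean FPKM were 0.840 and 0.866, which the pseudocount of 1 FPKM compresses strongly on the log2 scale at these levels. These log2 fold changes are therefore not comparable in size with that of Hes1.

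Heyl, a HEY relative expressed in mural cells, had 0 reads in all 6 libraries. A count of 0 allows up to 3 reads, or 0.0320 to 0.0390 FPKM per library, for counting error only. Nrarp, a Notch-induced ankyrin-repeat protein that damps the pathway, had 1, 2 and 3 reads in the controls and 0, 1 and 1 with nattokinase. These values lie at or under the 3 reads that a count of 0 allows, so no fold is given. Among the 4 HES and HEY members, Hes1 made up 90.3% ± 1.37 of the summed FPKM in the controls and 92.9% ± 1.12 with nattokinase. The ratio of Hes1 to Hey1 was 14.0 to 19.0 in the controls and 18.2 to 28.3 with nattokinase, so the groups overlapped (exact permutation p = 0.20, adjusted p = 0.20 over the 3 pairs).

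The call and the direction of each tested member under the alternatives are shown in the plot of log2 fold changes by way of processing.

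**Figure D2:**
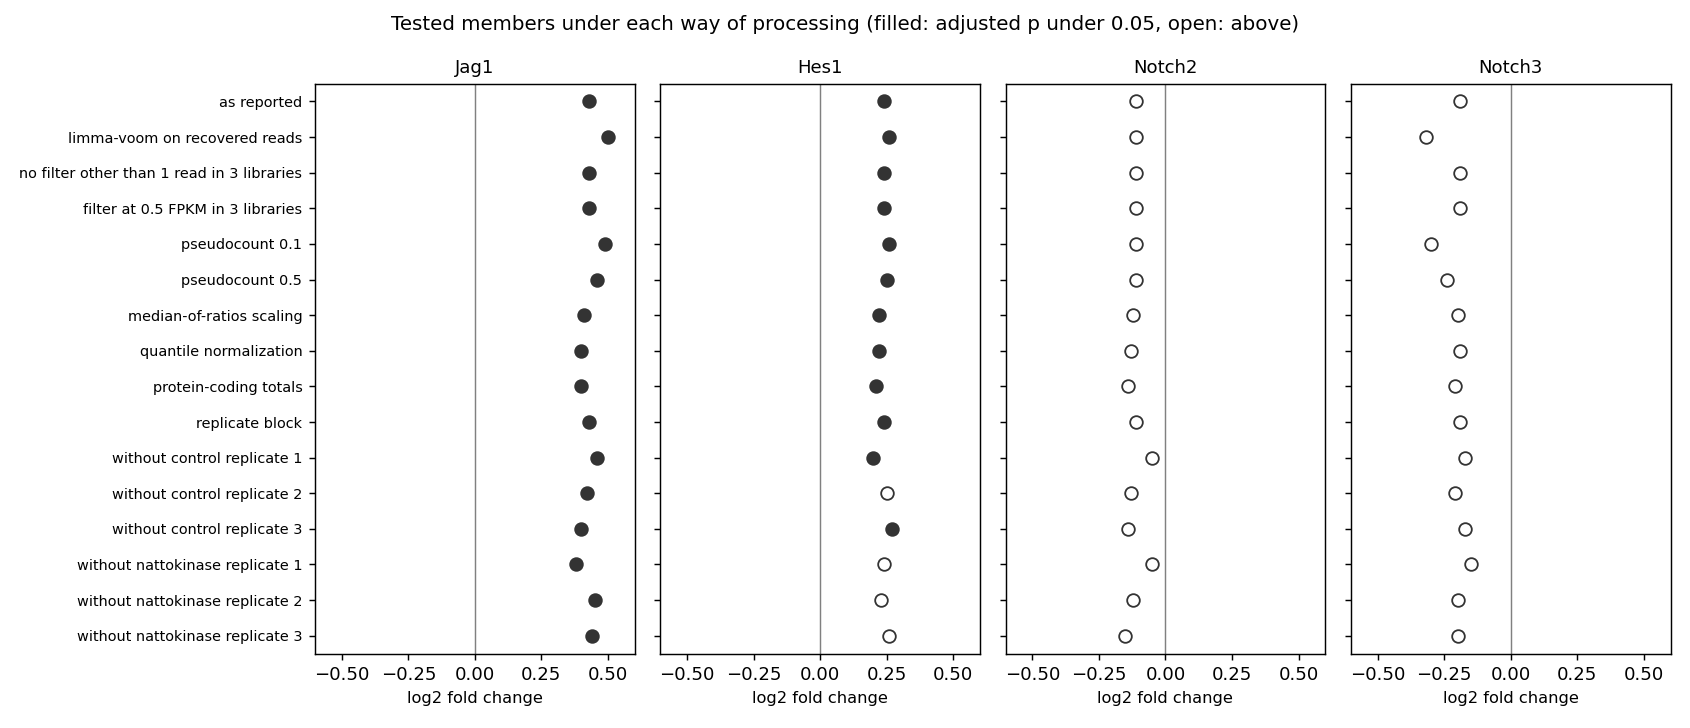
Log2 fold change (horizontal axis) of Jag1, Hes1, Notch2 and Notch3 as reported and under 15 alternatives (rows), with filled points for an adjusted p under 0.05 and open points otherwise. Jag1 is filled in every row between 0.38 and 0.50, Hes1 is open in 4 of the rows that leave out 1 library, and Notch2 and Notch3 are open and below 0 in every row.

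The other genes of the pathway were read from a list of 83 genes outside the members, of which 61 could be tested. Of these 8 rose and 1 fell (14.8% called, beside 8.85% of all tested genes), and their median log2 fold change was -0.03, against 0.01 over all tested genes and 0.07 over the 4 tested members. The list was chosen with earlier results of these data known. Its called shares, here and by role below, therefore cannot show whether pathway genes changed more often than others. The 8 that rose were Dlk2, Adam17, Neurl1a, Nedd4, Cir1, Acta2, Flt1 and Myc, and the 1 that fell was Dtx4. Most of the machinery that modifies, cuts and reads out the receptors did not pass the test.

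**Figure D3:**
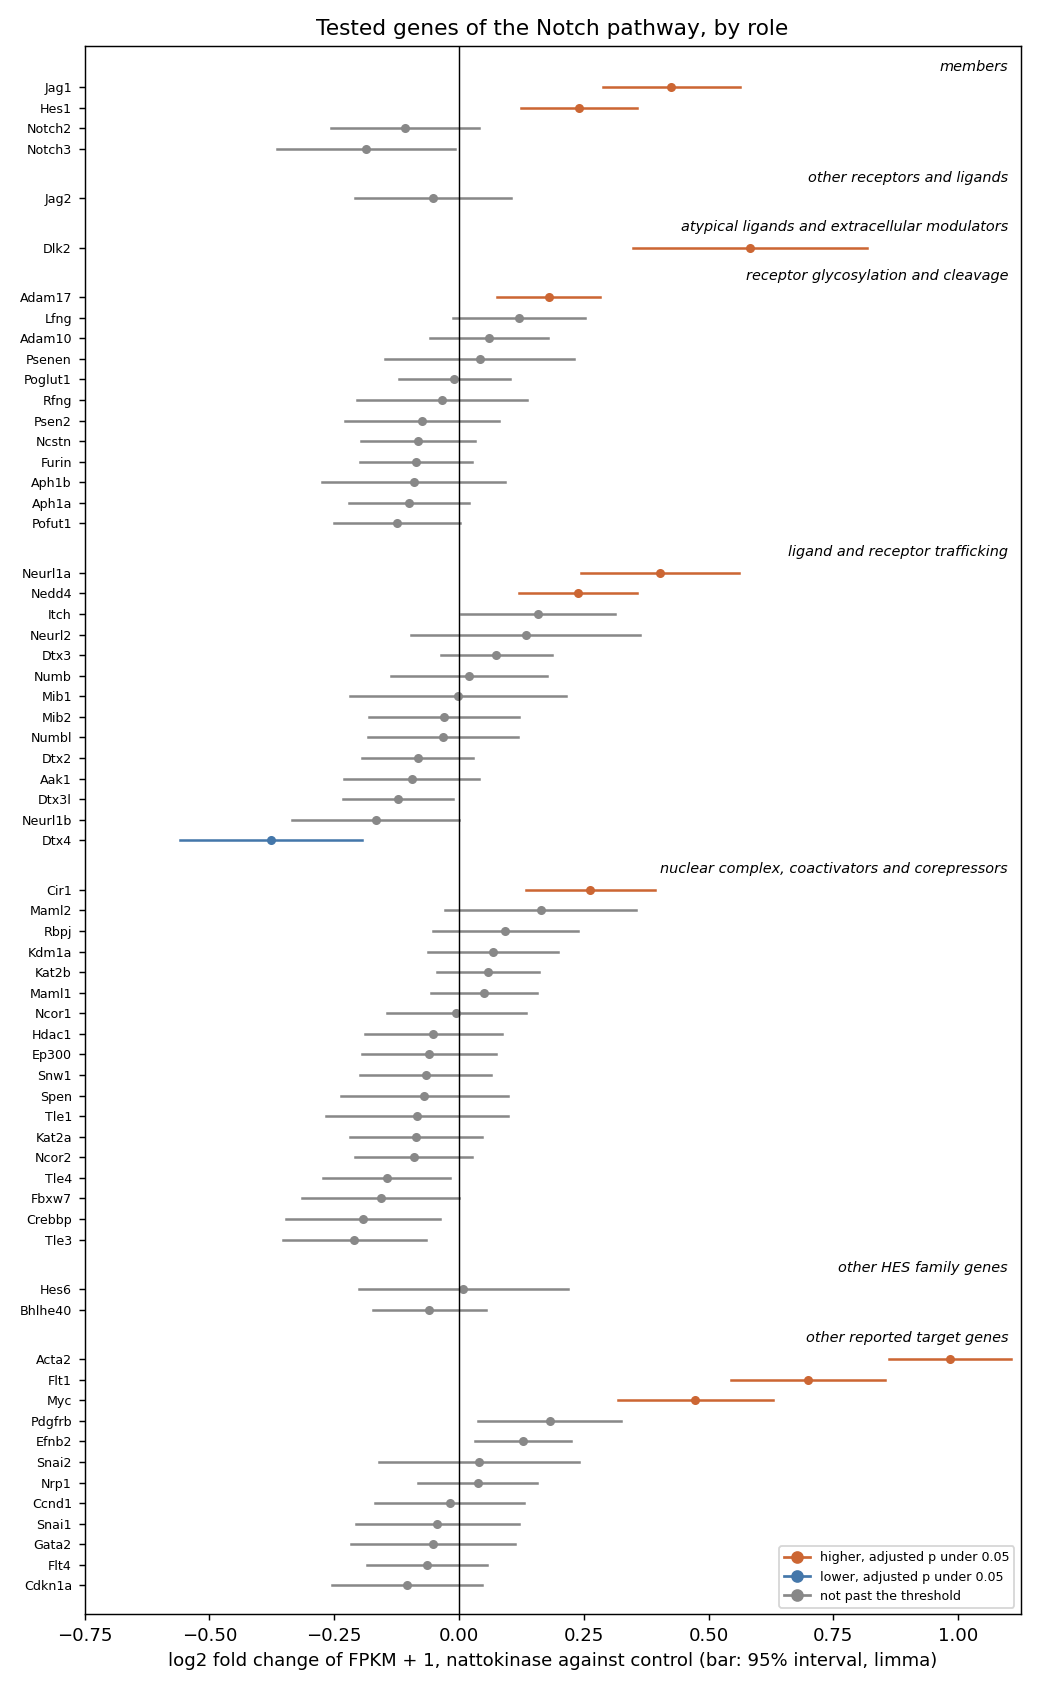
Log2 fold change of FPKM + 1 (horizontal axis, points) with its 95% interval (bars) for the 4 tested members and for tested genes of the list, grouped by role and coloured by call. Of the listed genes 8 lie to the right and 1 to the left past the threshold, and the intervals of most others include 0.

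Of 13 tested genes for receptor glycosylation and cleavage, 1 rose and 0 fell by limma (also 1 and 0 at an unadjusted p under 0.05 and by limma-voom). The limma share was 7.69%, beside 8.85% of all tested genes. Adam17, a membrane protease that can cut Notch receptors and sheds many other surface proteins, rose from 11.7 ± 0.083 to 13.4 ± 0.26 FPKM (log2 fold change 0.18, limma adjusted p = 0.039). This call was lost in 10 of 15 alternatives (limma adjusted p up to 0.14), among them the rescaling to protein-coding totals and every left-out library other than control replicate 1.

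Of 14 tested genes that act in ligand and receptor trafficking, 2 rose and 1 fell by limma (21.4% called, beside 8.85% of all tested genes). At an unadjusted p under 0.05 limma gave 3 higher and 3 lower, and limma-voom called 2 higher and 1 lower. Neurl1a, a ubiquitin ligase that promotes ligand endocytosis, rose from 2.48 ± 0.21 to 3.59 ± 0.15 FPKM (log2 fold change 0.40, limma adjusted p = 0.0067). Nedd4, a ubiquitin ligase with many substrates, rose from 120.1 ± 4.57 to 141.9 ± 6.58 FPKM (log2 fold change 0.24, limma adjusted p = 0.021). Dtx4, a Deltex ubiquitin ligase, fell from 1.99 ± 0.20 to 1.30 ± 0.065 FPKM (log2 fold change -0.38, limma adjusted p = 0.019). With a pseudocount of 0.1 FPKM its log2 fold change was -0.58, and with limma-voom -0.60. The call of Dtx4 was lost without control replicate 2 or any nattokinase replicate (limma adjusted p up to 0.069), and that of Nedd4 when control replicate 2, control replicate 3, nattokinase replicate 2 or nattokinase replicate 3 was left out (up to 0.098). The call of Nedd4 was also lost without the filter on low values (limma adjusted p = 0.054).

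Of 18 tested genes of the nuclear complex and its coactivators and corepressors, 1 rose and 0 fell by limma (1 and 3 at an unadjusted p under 0.05, and 1 and 2 by limma-voom). By limma 5.56% were called, beside 8.85% of all tested genes. Rbpj, which encodes the DNA-binding partner of the receptors, had 3.75 ± 0.25 and 4.07 ± 0.16 FPKM (log2 fold change 0.09, 95% interval -0.05 to 0.24, limma adjusted p = 0.44). Cir1, which encodes an RBPJ-interacting corepressor, rose from 3.75 ± 0.15 to 4.70 ± 0.034 FPKM (log2 fold change 0.26, limma adjusted p = 0.020). Leaving out any 1 library except control replicate 1 ended that call (limma adjusted p up to 0.080).

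Of 7 atypical ligands and modulators, only Dlk2 could be tested. Dlk2, a Delta-like homolog that lacks the receptor-binding DSL domain, rose from 1.45 ± 0.33 to 2.65 ± 0.20 FPKM (log2 fold change 0.58, limma adjusted p = 0.0074), from 37 to 107 reads per library. With limma-voom its log2 fold change was 0.89. It remained called without any 1 library. The tested HES relatives Bhlhe40 and Hes6 had 16.8 ± 0.71 and 8.69 ± 0.87 FPKM (SD, n = 6) and are not part of the Hes1 share given above. Their log2 fold changes were -0.06 and 0.01, and neither was called. Hes3, Hes5 and Helt, named after their values were seen, had 0 reads in all 6 libraries.

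Of 12 tested genes reported elsewhere as Notch targets in some cell types, 3 rose and 0 fell by limma (5 and 0 at an unadjusted p under 0.05, and 4 and 0 by limma-voom). The limma share was 25%, beside 8.85% of all tested genes, in a list chosen with earlier results of these data known. Acta2, the smooth muscle actin gene, rose 1.98-fold (log2 fold change 0.98), Flt1, a VEGF receptor gene, 1.86-fold (0.70) and Myc, a growth-promoting transcription factor gene, 1.41-fold (0.47). All 3 have other known regulators, and Acta2 has near-identical paralogs, so its value is uncertain to that extent. The other 9 were not called. Exons of Dlk2, Adam17, Neurl1a and Cir1 overlap those of another gene, whose reads cannot be told apart from theirs where exons are shared.

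Genes with a profile over the 6 libraries most like those of Jag1 and Hes1 were sought among all tested genes outside the pathway. Likeness was the root mean square difference of log2(FPKM + 1) after subtraction of each gene's mean. Since the profile includes the group difference, genes that changed by a similar amount on that scale come first. For Jag1 these were Palm2 (difference 0.039), Fam91a1 (0.052) and Mical2 (0.053), and for Hes1 they were Arf2 (0.017), Vat1 (0.017) and Pdcl3 (0.017). Mical2, which encodes an actin-oxidising monooxygenase, had 34.8 ± 0.46 FPKM in control cells and 45.7 ± 0.60 FPKM in treated cells. Arf2, a small GTPase gene of vesicle transport, had 23.1 ± 1.41 and 27.7 ± 0.67 FPKM. Palm2 had 0.780 ± 0.11 and 1.36 ± 0.17 FPKM, a ratio of means of 1.75 against 1.41 for Jag1. The pseudocount of 1 FPKM compresses that ratio on the log2 scale. Only the nattokinase libraries reached 1 FPKM for Palm2, so it was tested through that group alone. Palm2 and Vat1 share exon bases with another gene.

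**Figure D4:**
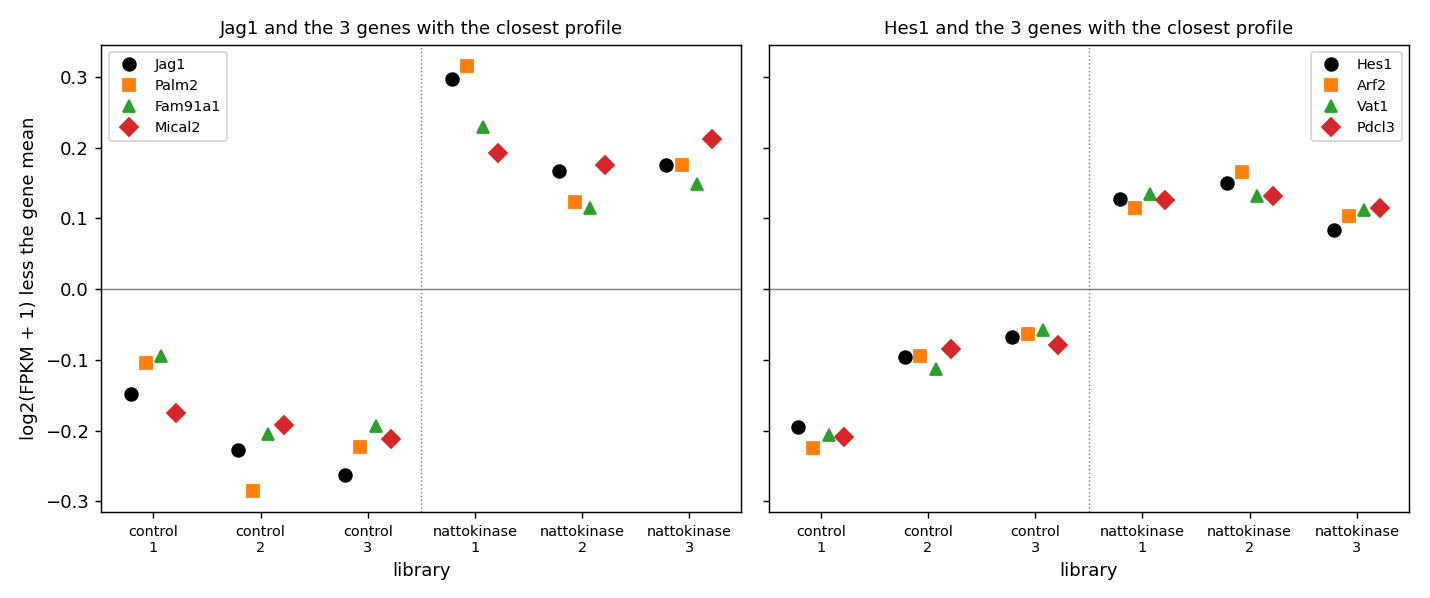
Log2(FPKM + 1) less the gene's mean over the 6 libraries (vertical axis) for Jag1 and its 3 closest genes (left) and for Hes1 and its 3 closest genes (right), in each library. Control points lie below 0 and nattokinase points above 0 for all 8 genes, and the spread among genes within a library is wider on the left, where the differences from Jag1 are 0.039 to 0.053, than on the right, where those from Hes1 are 0.017.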

How the data were processed

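RNA was sequenced from 3 untreated and 3 nattokinase-treated samples, grouped by their titles. Per the submitters' processing notes, HISAT2 2.1.0 and featureCounts 1.6.0 are among the tools named, without their roles, and the build named is the human GRCh38, although the gene identifiers are murine. FPKM for 55536 genes were deposited for each sample, a unit found from the values. Each value times the merged exon length in GENCODE M21 (GRCm38) came out as a whole number of equal steps in every library, within 0.05 for 100% of values above 0, which gives the reads behind it. Whether reads or fragments were counted is not stated.

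Genes that reached 1 FPKM in 3 or more libraries were tested on the log2(FPKM + 1) scale by limma 3.58.1 under R 4.3.3 (trend and robust prior, two-sided, Benjamini-Hochberg over all tested genes, threshold 0.05). Tested on simulated libraries, the script recovered most of the changed genes, least often at the smallest fold simulated. Hes1, Adam17 and Nedd4 rose by less than that fold, so the recovery of changes of their size was not simulated. The share of false calls was above the threshold. Replicates differed by more than counting error, with a mean chi-square per gene of 2.56 to 12.2 where counting error alone gives about 1. Intervals and floors cover counting error only where they rest on reads. Named are all members, listed pathway genes past the threshold or otherwise the 2 with the smallest p per role, Rbpj, the untested receptors and ligands, and the 3 closest profiles of each called member. Members and lists were chosen with earlier results of these data known. Alternatives were other filters, pseudocounts, scalings, limma-voom on recovered reads, a block for the replicate number, and the omission of each library in turn. The values of 1 listed pathway gene are not reported here; it is part of the counts.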

Additional observations from a re-analysis of the deposited data

How the results depend on the processing

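Of the 4 tested members, Jag1, Notch2 and Notch3 kept their direction and their side of the threshold under all 15 alternatives, and Hes1 under 11 of them. Leaving out 1 library gave 1 to 2 members called higher and 0 lower, 5 to 9 listed pathway genes higher and 0 to 1 lower, and 330 to 726 of all tested genes higher and 193 to 481 lower. Without the filter on low values 399 genes were higher and 215 lower, and with limma-voom 3 listed pathway genes were lower (Dtx4, Tle3 and Crebbp). The cause was not tested. With the replicate number as a block 5 listed pathway genes were higher, the calls of Adam17, Nedd4 and Cir1 being lost (limma adjusted p = 0.10, 0.072 and 0.056), 2 members remained called, and 439 and 249 of all tested genes were higher and lower. The labels give same-numbered samples only the number in common. Their deviations from their group means correlated at -0.089, -0.044 and -0.059, and no control correlated best with its own number. With 3 samples per group these values cannot decide whether same-numbered samples were paired. Rescaling to protein-coding totals gave 478 higher and 497 lower genes (49.0% higher, against 63.4% as reported), quantile normalization 547 and 463, and shifted the median log2 fold change of all genes by less than 0.1. Read numbers limit what can be said of Dll1, Hey1, Hey2 and Nrarp. Notch1, with 91 to 132 reads per library, missed the filter by its FPKM.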
